A study of Mus musculus with 11 samples.

Results

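The androgen-binding protein Scgb cluster is a stretch of mouse chromosome 7, chr7:31475976-33477194 in the mm10 build, whose sequencing depth was low in mouse embryonic stem cells (mESC) without DNA methyltransferases. It was chosen by that low depth: the Dnmt TKO library had been compared with the long-term Ctrl and Tet iTKO libraries, so the values of that contrast are given here as a description and were not tested. The cluster held 40 of the 52958 bins of about 50 kb into which the authors divided the genome, and all 40 had a mean relative depth within the limits of 0.25 to 2 that were set for single bins. In the RefSeq annotation, 32 of the 48 mouse genes with a symbol beginning Scgb1b or Scgb2b overlapped these bins, and the other 16 lay in the flanks of 2 Mb on either side. Scgb2b7, Scgb1b7 and Scgb1b10 were the members described in full.

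These genes encode the subunits of androgen-binding protein, a secretoglobin found in the saliva and tears of mice and studied for its part in mate recognition. Scgb1b genes encode the alpha subunit and Scgb2b genes the betagamma subunit, and an alpha subunit is joined to a betagamma subunit by disulfide bonds. The family grew by repeated duplication in the mouse lineage, so that neighbouring copies are often nearly the same in sequence. The libraries hold genomic DNA, and the values below are therefore depths of mapped DNA reads and not expression. Whether a low depth means fewer copies or reads that did not map to the reference was not tested.

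Low-coverage whole-genome sequencing was done on bulk DNA in 11 libraries of 7 groups. Ctrl mESC carry Cre/ERT2, a Cre recombinase activated by tamoxifen and driven by the human ubiquitin C promoter, and Rosa26-LSL-H2b-Egfp, a reporter switched on by Cre. Tet iTKO mESC carry the same alleles and Tet1,2,3 fl/fl, the floxed genes of the 3 enzymes that oxidise 5-methylcytosine. Each genotype had 1 library before treatment, 1 acute library (tamoxifen at 1 µM for 2.5 days and 4 more days of culture) and 3 long-term libraries from monoclonal populations kept for 30 days after the same treatment. The Dnmt TKO group was 1 library of a line that lacks Dnmt1, Dnmt3a and Dnmt3b constitutively, carries neither Cre nor reporter alleles in its label, and names no tamoxifen in its label. All lines were grown in 2i medium on mouse embryonic fibroblast feeders and sorted for CD326 and against Thy1.2, and the labels give a sort for the green reporter for Ctrl and Tet iTKO cells in general. The same wording stands on the libraries taken before treatment, whose reporter had not been activated, so whether that gate was used for them is not known. The paper gives the B6 background, the strain of the mm10 reference, for its mice. The Ctrl and Tet iTKO lines were derived from these mice. The strain of the Dnmt TKO line is not given in the sources used here. With 1 library the genotype, the line and its strain therefore cannot be told apart.

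The files held 554.7 to 812.1 megabases of aligned sequence per library, which gave a bin of median depth 215 to 315 reads when base sums were divided by 50. Depth is given below as relative depth, the depth of a bin divided by the median over autosomal bins of the same library, so that 1 is the usual autosomal level. In Ctrl and Tet iTKO libraries the median SD of a cluster bin over the 6 long-term libraries was 0.0549, against 0.0605 over all autosomal bins that passed the limits and 0.0638 from counting alone. The targeted exons are much shorter than a bin, and the bins over Dnmt1, Dnmt3a and Dnmt3b stood in Dnmt TKO at 0.884, 1.03 and 0.923 of the long-term median, so the depth does not check the genotype labels. Cell type markers cannot be read from DNA depth.

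The copies of the cluster resemble each other closely, which bears on every depth value over them, and the sequences just before the transcription starts show how closely. The 250 bases upstream of the start of Scgb1b10 (plus strand, chr7:32100619-32100868) and of Scgb1b15 (plus strand, chr7:32836320-32836569) are given 5′ to 3′ from RefSeq, GRCm38.p6, which is mm10, with the 3 bases that differ between them in capitals. Scgb1b17 had the same 250 bases as Scgb1b15, with 0 differences.
Scgb1b10: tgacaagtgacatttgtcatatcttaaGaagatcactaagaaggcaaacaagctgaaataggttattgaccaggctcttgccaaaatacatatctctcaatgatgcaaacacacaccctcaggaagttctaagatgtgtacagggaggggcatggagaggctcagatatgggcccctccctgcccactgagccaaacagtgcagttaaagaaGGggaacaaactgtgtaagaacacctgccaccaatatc
Scgb1b15: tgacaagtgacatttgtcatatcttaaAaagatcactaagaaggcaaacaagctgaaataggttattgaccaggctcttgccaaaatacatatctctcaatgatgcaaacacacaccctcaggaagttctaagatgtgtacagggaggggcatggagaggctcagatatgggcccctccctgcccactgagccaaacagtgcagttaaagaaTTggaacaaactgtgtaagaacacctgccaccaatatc
The same window of Scgb2b7 (minus strand, chr7:31705755-31706004) is set beside that of Scgb2b20 (minus strand, chr7:33366320-33366569), the copy most like it, which lies near the other end of the cluster. Capitals mark the bases that differ or have no partner in the alignment, 7 in each. The alignment took 10 single-base edits.
Scgb2b7: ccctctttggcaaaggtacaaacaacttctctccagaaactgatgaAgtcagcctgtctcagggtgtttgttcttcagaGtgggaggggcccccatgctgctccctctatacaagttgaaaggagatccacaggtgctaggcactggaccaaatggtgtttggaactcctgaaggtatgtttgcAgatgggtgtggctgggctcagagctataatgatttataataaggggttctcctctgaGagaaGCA
Scgb2b20: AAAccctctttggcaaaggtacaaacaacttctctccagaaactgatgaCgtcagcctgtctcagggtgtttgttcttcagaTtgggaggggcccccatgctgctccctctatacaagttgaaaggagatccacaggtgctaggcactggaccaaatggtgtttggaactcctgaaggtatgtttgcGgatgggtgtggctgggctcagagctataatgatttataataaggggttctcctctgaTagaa
The RefSeq table held such windows for 29 of the 48 genes, 16 of them in the cluster. Over whole gene bodies, Scgb1b10 was 99.7% identical to Scgb1b15 and to Scgb1b17, Scgb1b7 was 98.0% identical to Scgb1b29, and Scgb2b7 was 97.0% identical to Scgb2b20.

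Across the cluster, the depth of the Dnmt TKO library was about 0.55 of that of the long-term libraries. The median relative depth over the 40 bins was 0.533 in Dnmt TKO, against 0.982, 0.980 and 0.989 in the long-term Ctrl libraries and 0.939, 0.982 and 0.967 in the long-term Tet iTKO libraries. The early libraries stood at 0.933 (Ctrl before treatment), 0.968 (Ctrl acute), 0.955 (Tet iTKO before treatment) and 0.957 (Tet iTKO acute). Dnmt TKO lay apart from the other 10 libraries, which all fell between 0.933 and 0.989. As a median over bins, log2(relative depth + 0.05) was 0.80 lower in Dnmt TKO than the median of the 6 long-term libraries (-0.80), and the SD of the cluster value over those 6 libraries was 0.03 on the same scale.

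**Figure D1:**
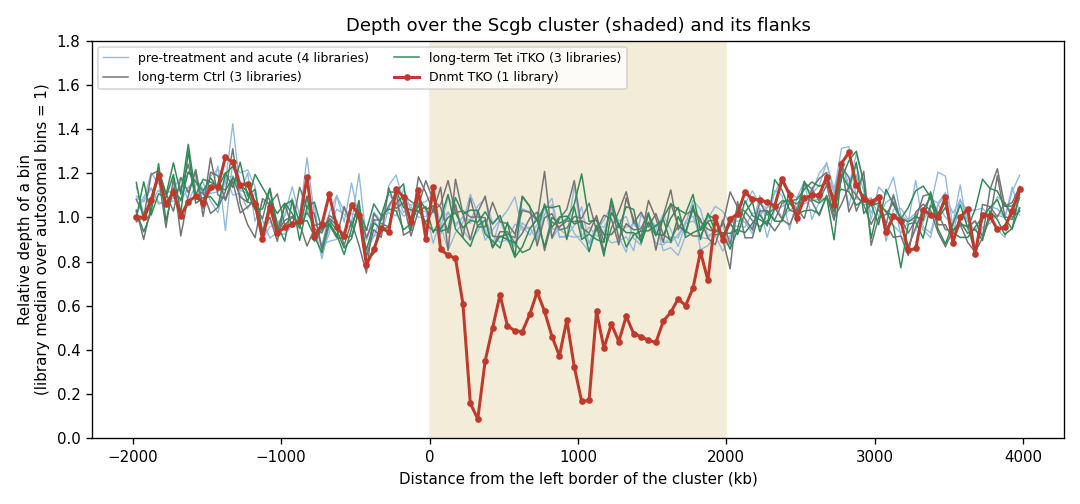
Relative depth of each bin (y axis, library median over autosomal bins = 1) against the distance of its midpoint from the left border of the cluster in kb (x axis), with the cluster shaded and 1 line per library. The Dnmt TKO line falls to 0.0877 inside the cluster and runs with the other 10 libraries in both flanks.

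The low depth did not extend into the flanks. In the 80 bins of the flanks, the ratio of Dnmt TKO to the long-term median had a median of 0.990 on the left (0.866 to 1.15) and 1.03 on the right (0.860 to 1.14). At the left border, the last bins outside, which start at 31375915 and 31425945, had ratios of 1.07 and 0.866, and the first bins inside, at 31475976 and 31526006, had 1.11 and 0.838. At the right border, the last bins inside, at 33377134 and 33427165, had 1.07 and 0.968, and the first outside, at 33477195 and 33527226, had 1.10 and 1.02. The outermost bin on each side of the cluster was thus within the range of the flanks, and the low bins lay further in.

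Of the 40 cluster bins, 15 stood in Dnmt TKO at or under 0.5 of the long-term median, where 0.351% of the 47798 autosomal bins did (168 bins). Another 18 lay between 0.5 and 0.75, and 7 lay above 0.75. The 33 bins at or under 0.75 compare with 1.09% of autosomal bins, and 32 of them formed an unbroken run from 31676098 to 33277072, a length of 1601 kb with a median ratio of 0.528. Dnmt TKO was below all 10 other libraries in 37 of the 40 bins, where that held for 14.2% of autosomal bins, and in 7 of the 80 flank bins. Since the contrast chose the cluster, nothing is read from these counts. The shortfall in depth of Dnmt TKO against the long-term median was summed over bins. It equalled that of 868 kb without reads, or 43.4% of the 2001 kb of the cluster.

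Inside the run, depth was lowest at 2 places, with ratios under 0.2 in 4 bins. The lowest bin, chr7:31776159-31826188, held 20 reads in Dnmt TKO, a relative depth of 0.0877 with an exact Poisson 95% interval of 0.0536 to 0.135 that covers counting error only. In the same bin the long-term Ctrl libraries stood at 1.00, 0.957 and 1.02, the long-term Tet iTKO libraries at 0.962, 1.03 and 0.978, and the early libraries between 0.939 and 1.05. It was the only cluster bin at or under 0.1 of the long-term median (ratio 0.0886), a level reached by 0.00628% of autosomal bins (3 bins). It holds the pseudogenes Scgb2b8-ps and Scgb1b8-ps. If copies were lost, bulk DNA cannot tell a partial loss in all cells from a full loss in part of them. The share of feeder DNA in this library, which was sorted without the reporter, was not tested.

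The bin before it, chr7:31726128-31776158, held 36 reads, with a relative depth of 0.158 (0.111 to 0.218). The second place lay about 0.7 Mb further on, in the bins chr7:32476586-32526615 with 38 reads and a relative depth of 0.166 (0.118 to 0.229), and chr7:32526616-32576646 with 39 reads and 0.171 (0.122 to 0.234). In these 3 bins the 10 other libraries ranged from 0.845 to 1.20. The first of the latter bins holds Scgb2b13-ps and Scgb1b13-ps. By sequence these places are copies of each other: of the 50-base stretches of the lowest bin, 45.4% were found in the bin at 32526616, and of those of the bin at 31726128, 43.9% were found in the bin at 32476586, more than in any other cluster bin.

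Away from these 4 bins the ratios of the run varied from 0.315 to 0.701. In the 8 neighbouring bins from 32676708 to 33076950, the relative depth of Dnmt TKO was 0.434 to 0.552 and its ratio to the long-term median 0.444 to 0.555, while the 10 other libraries lay between 0.843 and 1.12. In these 8 bins fewer than 1% of the 50-base stretches occur at a single place in the reference, with 0.358% the highest share. Reads that fit several places were thus counted there, and the depth of such a bin cannot be assigned to a single copy. The bins at 31926250, 31976281, 32026311 and 32076342, which share 48.2% to 62.6% of their stretches with 1 of these 8 bins, had ratios of 0.701, 0.547, 0.550 and 0.493, the first of them above the range of the 8.

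Uniqueness of sequence and depth ratio tended to go together over the cluster, but the least unique bins were not the lowest. The median share of single-place stretches was 21.9% in cluster bins and 94.8% in flank bins. The bins with the lowest ratios, at 31726128, 31776159, 32476586 and 32526616, had shares of 15.1% to 21.6%. The 8 bins with shares under 1% had ratios of 0.444 to 0.555. The 6 cluster bins with a share of at least 50% had ratios of 0.783 to 1.11 (median 0.932), and the 34 bins below that share had ratios of 0.0886 to 0.838 (median 0.545). Over the 40 bins Pearson's r between ratio and share was 0.67 and Spearman's rho 0.59, as a description of neighbouring bins from 1 library that share copies and map position. Only 1 cluster bin reached a share of 80%, the outermost one on the left, and there Dnmt TKO was higher than the long-term median by 0.14 on the log2 scale. Where reads from 1 copy were placed among its near-identical partners was not tested, so a ratio belongs to a set of copies and not with certainty to the bin it is printed for. GC content ran from 39.0% to 42.8% in the cluster, with a median of 40.6% against 41.4% over autosomal bins and 46.5% in the flanks.

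**Figure D2:**
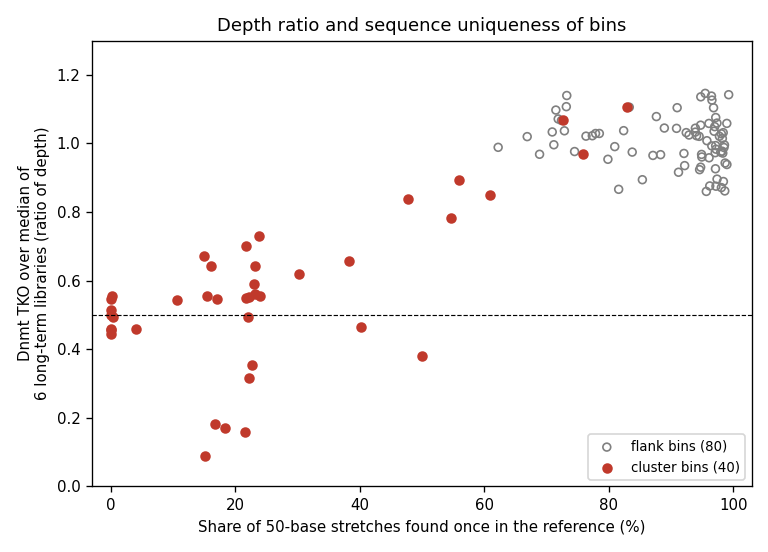
Ratio of Dnmt TKO depth to the median of 6 long-term libraries (y axis) against the share of 50-base stretches of the bin found at a single place in the reference, in percent (x axis), with 1 point per bin and a dashed line at a ratio of 0.5. The 40 cluster bins spread down to 0.0886 at shares under 50%, and the 80 flank bins lie between 0.860 and 1.15 at shares above 60%.

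Scgb2b7 and Scgb1b7 are a betagamma and an alpha gene lying back to back. Scgb2b7 (chr7:31703779-31705754, minus strand, 3 exons) and Scgb1b7 (chr7:31712665-31713980, plus strand, 3 exons) are 6910 bases apart and lie in the same bin, so they have the same depth values. That bin, chr7:31676098-31726127, stood at 0.609 in Dnmt TKO with 139 reads (95% Poisson interval 0.512 to 0.719). The long-term Ctrl libraries had 1.03, 0.910 and 1.02 there, and the long-term Tet iTKO libraries 0.908, 1.02 and 0.952. The early libraries lay between 0.943 and 1.00, so Dnmt TKO was the lowest of the 11 libraries. The ratio to the long-term median was 0.619 and the difference in log2(relative depth + 0.05) was -0.65. The bin sits at the left edge of the run, next to the first of the 2 places with the lowest depth. Scgb1b29, the copy most like Scgb1b7, had a ratio of 0.315. Scgb2b20, the copy most like Scgb2b7, had one of 0.730, so the closest copies stood on either side of 0.619.

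Scgb1b10 (chr7:32100869-32102050, plus strand, 3 exons), an alpha gene, lies in the bin chr7:32076342-32126371 together with the betagamma gene Scgb2b10. Dnmt TKO stood at 0.483 there with 110 reads (0.396 to 0.581). The long-term Ctrl libraries had 0.928, 1.03 and 1.10, the long-term Tet iTKO libraries 0.841, 1.09 and 0.866, and the early libraries 0.942 to 1.04. Again Dnmt TKO was the lowest library, with a ratio of 0.493 to the long-term median and a log2 difference of -0.95. The copies Scgb1b15 and Scgb1b17, whose upstream windows are shown above or are identical to one shown, stood at 0.473 and 0.530 in Dnmt TKO, ratios of 0.494 and 0.555.

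The other Scgb1b and Scgb2b genes followed their bins. The lowest ratios belonged to Scgb2b8-ps and Scgb1b8-ps, both 0.0886, and to Scgb2b13-ps and Scgb1b13-ps, both 0.169, and in each pair the genes share a bin. The highest were Scgb1b34-ps at 0.968, in the last bin, and Scgb2b19 and Scgb1b19 at 0.895. Of all 32 genes in the cluster, which lie in 23 bins, 14 stood at or under 0.5 of the long-term median and 26 at or under 0.75, against 0.527% and 1.75% of 46470 RefSeq genes on autosomes. The median was 0.525 for the 12 alpha genes and 0.554 for the 20 betagamma genes, and 6 of the former and 8 of the latter were at or under 0.5. Protein-coding genes (21, median 0.555, 8 at or under 0.5) had ratios of 0.169 to 0.895. Pseudogenes (11, median 0.494, 6 at or under 0.5) had ratios of 0.0886 to 0.968. The lowest protein-coding entry was Scgb2b13-ps, which the annotation lists as protein-coding despite its symbol.

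An arrangement like that of Scgb2b7 and Scgb1b7, a betagamma gene on the minus strand followed by an alpha gene on the plus strand, occurred 10 times in the cluster with gaps of 6057 to 7730 bases, and in 8 of the 10 both genes lay within 1 bin. Depth could not separate the subunits of such pairs. Bins with and without a gene of the family had like ratios, with a median of 0.554 over 23 bins and 0.547 over 17. No protein-coding gene outside the family overlapped the cluster. The other 31 annotated genes there were all pseudogenes.

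**Figure D3:**
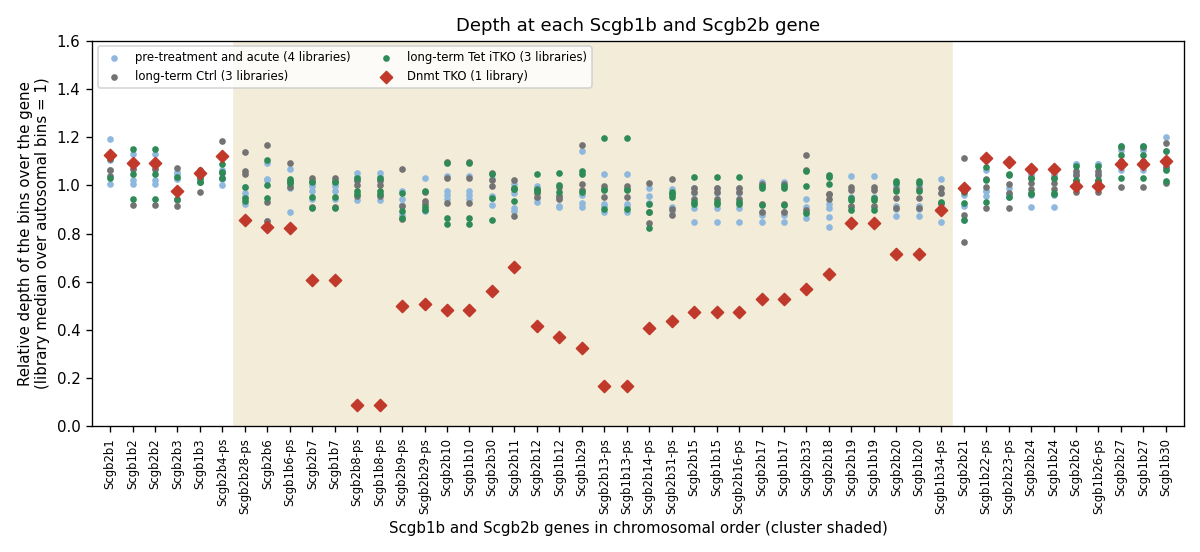
Relative depth of the bins over each Scgb1b and Scgb2b gene (y axis, library median over autosomal bins = 1) in chromosomal order (x axis), with 1 point per library and diamonds for Dnmt TKO. Genes that share a bin have the same values, and the Dnmt TKO points leave the others in the shaded cluster, down to 0.0877 at Scgb2b8-ps and Scgb1b8-ps.

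Genes of the family outside the cluster stood near 1. The 16 Scgb1b and Scgb2b genes of the flanks had ratios of Dnmt TKO to the long-term median between 0.968 and 1.11, with a median of 1.03, and 0 were at or under 0.75. The 5 secretoglobin genes elsewhere in the genome had ratios of 0.977 for Scgb1a1, the airway club cell secretoglobin, 0.967 for Scgb2a2, 1.05 for Scgb1c1, 0.967 for Scgb3a1 and 0.977 for Scgb3a2. The difference between these genes and the cluster was not tested, since it rests on the 1 library that chose it.

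Genes with a like pattern over the libraries were sought across the genome. Likeness was the Euclidean distance over the 11 libraries between the profile of a gene and that of the cluster, each as log2(relative depth + 0.05) minus its median over the 6 long-term libraries, among 20343 protein-coding genes outside the cluster and its flanks. The nearest were Gm7982 on chromosome 5 (distance 0.141, Dnmt TKO difference -0.77), Gm5157 on chromosome 7 (0.171, -0.80), Gm32687 on chromosome 10 (0.186, -0.84), Pramel34 on chromosome 5 (0.197, -0.75) and the vomeronasal receptor gene Vmn1r121 on chromosome 7 (0.198, -0.89). Pramel34 belongs to the Prame-like family. The profile of the cluster was -0.05 to 0.03 in the other libraries and -0.80 in Dnmt TKO. The likeness thus rests mainly on the Dnmt TKO value that chose the cluster, and it is a description. Of the 168 autosomal bins at or under 0.5 of the long-term median in Dnmt TKO, 65 were on chromosome 7, and 15 of these 65 were in the cluster. Chromosome 7 held 2833 of the 47798 autosomal bins that passed the limits. With 0 such bins in the flanks, the others of the 65 lay elsewhere on chromosome 7.

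Long-term Tet iTKO against Ctrl is the replicated comparison, and this contrast did not choose the cluster. It shares its libraries with the contrast that did, in which they were set against Dnmt TKO. The cluster median of log2(relative depth + 0.05) was 0.05 ± 0.01 in Ctrl (SD, n = 3) and 0.02 ± 0.03 in Tet iTKO (SD, n = 3), a difference of -0.03 (Tet iTKO minus Ctrl). The groups overlapped, as Tet iTKO replicate 2 had a relative depth of 0.982 and Ctrl replicate 2 one of 0.980. Their relative depths of chromosome Y did not overlap, at 0.463 to 0.470 in Ctrl and 0.549 to 0.558 in Tet iTKO. Genotype and this difference cannot be told apart here. The study describes populations of each genotype derived from 3 embryos, but the labels do not tie the 3 libraries of a group to embryos, so the spread may be that between clones of 1 line.

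In single bins, 0 of the 40 cluster bins passed an adjusted p of 0.05 between long-term Tet iTKO and Ctrl (limma, Benjamini-Hochberg over 47798 autosomal bins), where 0.113% of autosomal bins passed (54 bins). The smallest adjusted p in the cluster was 0.757, and 2 bins had an unadjusted limma p under 0.05. The differences ran from -0.16 to 0.10 on the log2 scale with a median standard error of 0.07, and the 95% intervals of the bins together covered -0.30 to 0.24. These intervals are unadjusted and centred on the observed differences, so they are not a limit of detection, and 38 of the 40 held 0. Changes of that size in single bins could have been missed with 3 libraries a group at this depth. The groups did not overlap in 3 of 40 bins, against 11.3% of autosomal bins.

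At the bin of Scgb2b7 and Scgb1b7 the relative depth was 0.985 ± 0.0655 in long-term Ctrl and 0.958 ± 0.0541 in long-term Tet iTKO (SD, n = 3 each), a log2 difference of -0.04 (exact permutation test, two-sided, p = 0.5). At that of Scgb1b10 it was 1.02 ± 0.0848 in Ctrl and 0.934 ± 0.139 in Tet iTKO, a log2 difference of -0.13 (exact permutation test, two-sided, p = 0.3). With 3 libraries against 3, the smallest p this test can give is 0.1, so it cannot pass 0.05. By limma the 95% intervals of these log2 differences were -0.18 to 0.11 for the former bin and -0.28 to 0.03 for the latter.

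**Figure D4:**
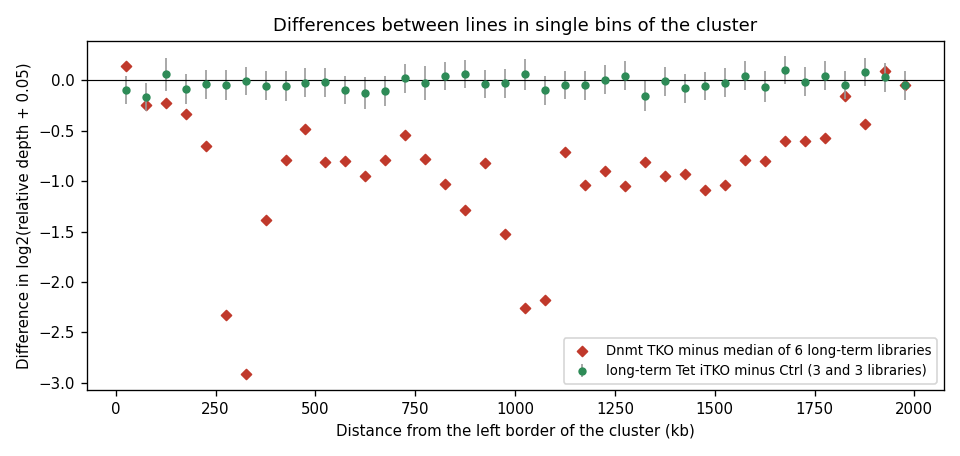
Difference in log2(relative depth + 0.05) for each cluster bin (y axis) against distance from the left border of the cluster in kb (x axis). Circles with bars are long-term Tet iTKO minus Ctrl with limma's 95% intervals (3 libraries each). The circles lie between -0.16 and 0.10 and the bars between -0.30 and 0.24. Diamonds are Dnmt TKO (1 library, no error) minus the median of the 6 long-term libraries.

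The cluster was set side by side over the stages within each genotype, though the early and long-term libraries also differed in chromosome Y depth. In Ctrl its median relative depth was 0.933 before treatment, 0.968 at the acute stage and 0.980 to 0.989 in the long-term clones. In Tet iTKO it was 0.955, 0.957 and 0.939 to 0.982. With 1 library per early group these differences were not tested. The chromosome Y depth of the same libraries differed far more between the stages. It was 0.0269 to 0.0381 in the 4 early libraries, 0.463 to 0.470 in long-term Ctrl and 0.549 to 0.558 in long-term Tet iTKO. In Dnmt TKO it was 0.457. Chromosome X depth was 0.560 to 0.569 in the early and 0.568 to 0.572 in the 6 long-term libraries. Stage therefore cannot be told apart from a difference between the cells sampled. The part of chromosome Y in the values of the cluster was not tested. Measured against the 4 early libraries in place of the long-term ones, the difference of Dnmt TKO over the cluster was -0.74.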

How the data were processed

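Low-coverage whole-genome sequencing libraries of mESC were read from the deposited files. The authors trimmed single-end reads, mapped those of at least 70 bases to mm10 with BWA-mem, removed optical duplicates with Picard and deposited coverage (depth) per bin, a signal without scaling to library size or correction for GC or mappability. The deposited log2 column is the log2 of that depth. Low base sums came in steps of 50 (95.4% of 3432 sums under 400), so reads are base sums over 50. This step conflicts with the stated minimum of 70 bases. If reads were longer than 50 bases, read counts would be lower and their Poisson intervals wider, and stretches of that length would more often be unique, while relative depths would not change. How reads with several equal placements were assigned is not given in the sources used here.

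Depth was divided by the median autosomal depth and tested as log2 with a pseudocount of 0.05, without GC correction, by limma 3.58.1 in R 4.3.3 (two-sided moderated test, p adjusted by Benjamini-Hochberg), which was tested on simulated data. A gene took the length-weighted mean of its overlapping bins. The share of 50-base stretches found at a single place was counted on both strands of GRCm38.p6, and positions and names are those of RefSeq.

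The members and lists were chosen with earlier results of these data known. Named were the 3 members, the 3 lowest and 3 highest other genes of the family (ties included), the other Scgb genes, the 5 genes most alike, and 2 bins on either side of each border. Scgb1b15, Scgb1b17, Scgb1b29, Scgb2b10 and Scgb2b20 were named for their sequence or position after their values were seen. Alternatives were other scalings, references, pseudocounts and filters, a GC correction by lowess, a replicate block and the removal of single long-term libraries. Poisson intervals cover counting error only. The limma intervals rest on the moderated spread between libraries of a group.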

Additional observations from a re-analysis of the deposited data

How the results depend on the processing

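The low depth of Dnmt TKO over the cluster depended on which bins were used. With only the 1 bin in which at least 80% of stretches are unique, the log2 difference was 0.14, the count of bins at or under 0.5 was 0, and the Tet iTKO minus Ctrl difference was -0.10. With the 6 bins of at least 50%, a set that was chosen after seeing the data, the difference was -0.10 and the count 0. No bin of the run of low bins reached a share of 50% (the highest was 49.989%), so both sets leave the run out and do not measure it. The difference was -0.84 with a pseudocount of 0.01 and -0.67 with 0.2, and -0.74 against the early libraries. For the mean of Scgb2b7, Scgb1b7 and Scgb1b10 (-0.75), a pseudocount of 0.2 gave -0.63. Other scalings, the GC correction and the sum over the cluster moved these values by less than the spread between libraries.

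Leaving out 1 long-term library at a time gave -0.82 to -0.79 for the cluster, 13 to 15 bins at or under 0.5, -0.80 to -0.70 for the 3 genes, and for Tet iTKO minus Ctrl -0.04 to -0.01 over the cluster and -0.13 to -0.02 over the genes. In the cluster 0 bins were called by limma in each of the 13 alternatives, with 0 to 3 bins at an unadjusted p under 0.05. Over all autosomal bins the count was 38 to 106 when 1 library was left out, and the 106 came without Tet iTKO replicate 3, against 54 with all; the cause was not tested.

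Same-numbered Ctrl and Tet iTKO libraries did not deviate together in single bins (correlations of -0.0051 to 0.0019). Differently numbered libraries gave -0.0057 to 0.0045. Single bins varied about as much as counting alone gives (0.0605 and 0.0638), so this check cannot show whether the numbers pair the libraries. A replicate block gave 0 called bins in the cluster and 69 in all, a cluster difference of -0.03 and a difference of -0.07 for the 3 genes.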
